A study of Homo sapiens with 16 samples.

Results

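The nuclear-encoded subunits of oxidative phosphorylation (OXPHOS) were followed across 4 groups of MCF10A cells, an established human mammary epithelial line that does not form tumours. Members were chosen by symbol from the deposited gene table, as names that begin with UQCR, that consist of ATP5 and further letters or digits, of NDUFA, NDUFB, NDUFC, NDUFS or NDUFV and a number, or of COX4 to COX8 with at most 1 letter from A to C and a number, or that are *SDHA* to *SDHD*. Longer names such as *COX4I1*, *COX7A2L* or *NDUFA4L2* do not match. Of the 26475 genes listed, 84 matched, and the 76 with at least 10 counts in every library were kept. Complex I had 36 members, complex II 4, complex III 9, complex IV 10 (with *NDUFA4*, whose product was first assigned to complex I and is now counted in complex IV) and complex V 17. Of the 76, 73 encode a subunit. *UQCRHL* is a retrocopy of *UQCRH*, and *ATP5S* and *ATP5SL* encode relatives that are not part of the enzyme. The OXPHOS genes of the mitochondrial genome are not analysed here.

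Oxidative phosphorylation takes place in the inner mitochondrial membrane. Complex I accepts electrons from NADH and complex II from succinate, both pass them to ubiquinone, complex III hands them on to cytochrome c and complex IV to oxygen. Complexes I, III and IV pump protons, and complex V, the ATP synthase, lets them flow back to make ATP. Most subunits are encoded in the nucleus and imported, so that their genes have to be expressed together with the few mitochondrial ones, and *NRF1*, the ETS factor GABP and *YY1* are known activators of many of them.

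RNA-seq was carried out on 16 libraries, 4 in each group. The control group was given DMSO and 2 changes of normal medium. The collagen group had DMSO and, for the last 24 h, medium with 0.05 mg/mL collagen, to which NaOH was added for polymerization, so that collagen and this medium cannot be told apart. The DDR1i group had the same collagen with 2 μM DDR1-IN-1, an inhibitor of the collagen receptor kinase DDR1, and the RUNXi group the same collagen with 5 μM of the small molecule that the labels call RUNXi, which keeps CBFβ from binding RUNX proteins. Inhibitors were present for 48 h. The labels number the replicates without saying whether they were separate cultures, and p-values then measure only the spread between these libraries.

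Total counts ranged from 12184619 to 44332378 per library, and members held between 1.13% and 1.54% of them. Levels are given in CPM, the counts of a gene per unit of library size after edgeR's TMM scaling. Log2 fold changes and their standard errors (SE) came from edgeR's quasi-likelihood test, and its p-values were adjusted by the Benjamini-Hochberg method over all genes tested. The epithelial markers *KRT5*, *KRT14*, *KRT6A*, *TP63*, *CDH1*, *EPCAM* and *ITGA6* were present in every library (*KRT5* at 6971 to 11590 CPM), while the endothelial marker *CDH5* and the adipocyte marker *ADIPOQ* had 0 counts throughout. The immune markers PTPRC and CD3E and the fibroblast marker PDGFRA were at 0 in 15 libraries. DCN, CD68 and CD14 were above 0 in every library, with at most 30.1, 28.7 and 18.7 CPM. The fibroblast markers COL1A1 and PDGFRB reached 6.35 and 0.763 CPM and the endothelial marker PECAM1 2.40. COL1A2, VWF and PLIN1 had at most 0.191, 0.568 and 0.160 CPM. The authors dropped collagen replicate 3 because it stood apart from its group. The fits here leave it out too, while the numbers of calls, the medians over all members and over the other lists and the values of the called genes are given with it as well. Medians of single complexes and log2 fold changes of genes that were not called are given without it. A gene was called when its adjusted p-value was under 0.05.

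Promoters of 61 of the 76 members were matched in the RefSeq table (GRCh38.p14; 250 bases before and 50 after the start site) and searched on both strands for letters of motifs of the known activators. The *NRF1* core CGCATGCG, which reads the same on both strands, was found in 10 of 61 member promoters (16.4%) against 2.19% of all 27305 promoters and 3.87% of the 10454 of genes tested. The ETS core CCGGAAG was found in 18 (29.5%), against 10.7% and 19.3%, and the *YY1* core AAGATGGCG in 8 (13.1%), against 1.85% and 4.01%. At least 1 of them was found in 29 member promoters (47.5%), against 13.7% of all and 25.1% of those of genes tested. The ETS core ends with the 3 letters that begin the *YY1* core, so that 1 stretch can hold both. The 250 bases before the start site are shown for 4 members that were lower with an inhibitor at an unadjusted p under 0.05, to set one with every motif beside one with none. Capitals mark the motifs.
*ATP5J* (*ATP5PF*), chr21:25735055-25735304, minus strand, with the *NRF1*, *YY1* and ETS cores in that order: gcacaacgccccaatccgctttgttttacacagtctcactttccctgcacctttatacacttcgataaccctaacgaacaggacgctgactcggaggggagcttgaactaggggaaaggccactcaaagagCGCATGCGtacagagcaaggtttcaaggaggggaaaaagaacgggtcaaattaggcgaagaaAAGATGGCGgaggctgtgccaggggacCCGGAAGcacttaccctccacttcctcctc
*NDUFS3*, chr11:47578824-47579073, plus strand, with the ETS core on both strands: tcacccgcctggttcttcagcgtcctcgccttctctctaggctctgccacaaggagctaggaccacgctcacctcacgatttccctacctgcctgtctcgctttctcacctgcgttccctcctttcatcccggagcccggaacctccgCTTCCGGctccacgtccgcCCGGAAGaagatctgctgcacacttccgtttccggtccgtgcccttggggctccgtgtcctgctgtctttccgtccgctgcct
*NDUFA1*, chrX:119871582-119871831, plus strand, with the ETS core on the minus strand: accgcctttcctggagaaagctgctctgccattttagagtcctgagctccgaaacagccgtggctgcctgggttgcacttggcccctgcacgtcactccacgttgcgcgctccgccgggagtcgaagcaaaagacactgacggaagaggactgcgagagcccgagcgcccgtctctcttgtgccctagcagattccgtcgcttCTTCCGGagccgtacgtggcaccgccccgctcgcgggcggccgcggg
*NDUFB3*, chr2:201071751-201072000, plus strand, without a match: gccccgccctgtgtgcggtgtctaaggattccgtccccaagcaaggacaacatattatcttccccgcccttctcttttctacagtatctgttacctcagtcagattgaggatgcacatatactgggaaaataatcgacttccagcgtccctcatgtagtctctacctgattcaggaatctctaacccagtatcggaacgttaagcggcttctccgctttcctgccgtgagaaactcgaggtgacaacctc
These matches describe the letters of the window and say nothing of binding in these cells.

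Levels of different genes were compared per kilobase of coding sequence, as the mean over all libraries. The counts of a gene can include reads outside its coding part, so that a short coding sequence can raise this level. Within complex IV this level was highest for *COX8A* (1271 CPM per kb) and lowest for *COX5B* (419). A small subunit led in the other complexes as well: *NDUFS5* in complex I at 757 CPM per kb against 39.4 for *NDUFV3*, *SDHD* in complex II at 306 against 85.6 for the flavoprotein *SDHA*, and *UQCR11* in complex III at 1106 against 166 for the core protein *UQCRC2*. In complex V the membrane subunit *ATP5L* stood at 986 CPM per kb and *ATP5E* at 46.8. *NDUFC2*, *ATP5E*, *ATP5S* and *UQCRHL* lay nearest to the limit of the rule, with 27, 60, 73 and 79 counts in their lowest library, while the next member had 516. *NDUFC2* and *ATP5E* overlap read-through genes that the table lists with 0 counts in every library, and how reads of shared exons were assigned is not given in the sources used here, so that both values are uncertain. The 8 genes that matched and were not kept had at most 35 counts in any library. They were *COX6A2*, *COX6B2*, *COX7A1*, *COX7B2* and *COX8C*, isoforms known from heart, muscle or testis, and *ATP5EP2*, *ATP5L2* and *UQCRBP1*. *COX6A2* and *COX7B2* had 0 counts throughout.

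The members moved together across libraries. Each member's log2 CPM was set relative to its own mean over the 16 libraries, and these values were averaged. The average was highest in collagen replicate 4, at 0.44, and 0.12 and 0.22 in collagen replicates 1 and 2. Collagen replicate 3 stood at -0.01. The control libraries were at -0.12, 0.01, -0.04 and -0.19, the DDR1i libraries at 0.11, -0.21, -0.08 and -0.10, and the RUNXi libraries at 0.02, -0.03, 0.01 and -0.14. Collagen replicates 1, 2 and 4 lay above every other library, with DDR1i replicate 1 just under collagen replicate 1. Collagen replicate 4 held the highest value of all 16 libraries for 60 of the 76 members. Collagen replicate 3 lay under the other 3 collagen libraries for 56 members and for 73 inside the range spanned by the 8 libraries with an inhibitor. The mean of the collagen group was the highest of the 4 groups for 73 members without replicate 3 and for 71 with it.

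In each complex the collagen group had the highest mean. In complex IV the average was 0.32 ± 0.23 (SD, n = 3) with collagen, -0.12 ± 0.12 in the control, -0.11 ± 0.16 with DDR1i and -0.00 ± 0.10 with RUNXi (n = 4 each). In complex II it was 0.14 ± 0.11 with collagen, -0.01 ± 0.11 in the control, -0.10 ± 0.08 with DDR1i and 0.01 ± 0.08 with RUNXi. Complex I stood at 0.26 ± 0.17 with collagen, complex III at 0.27 ± 0.14 and complex V at 0.23 ± 0.14. In the plot of complex levels the 3 collagen libraries overlapped DDR1i replicate 1 in complexes I and III and 1 control and 1 RUNXi library in complex II.

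**Figure D1:**
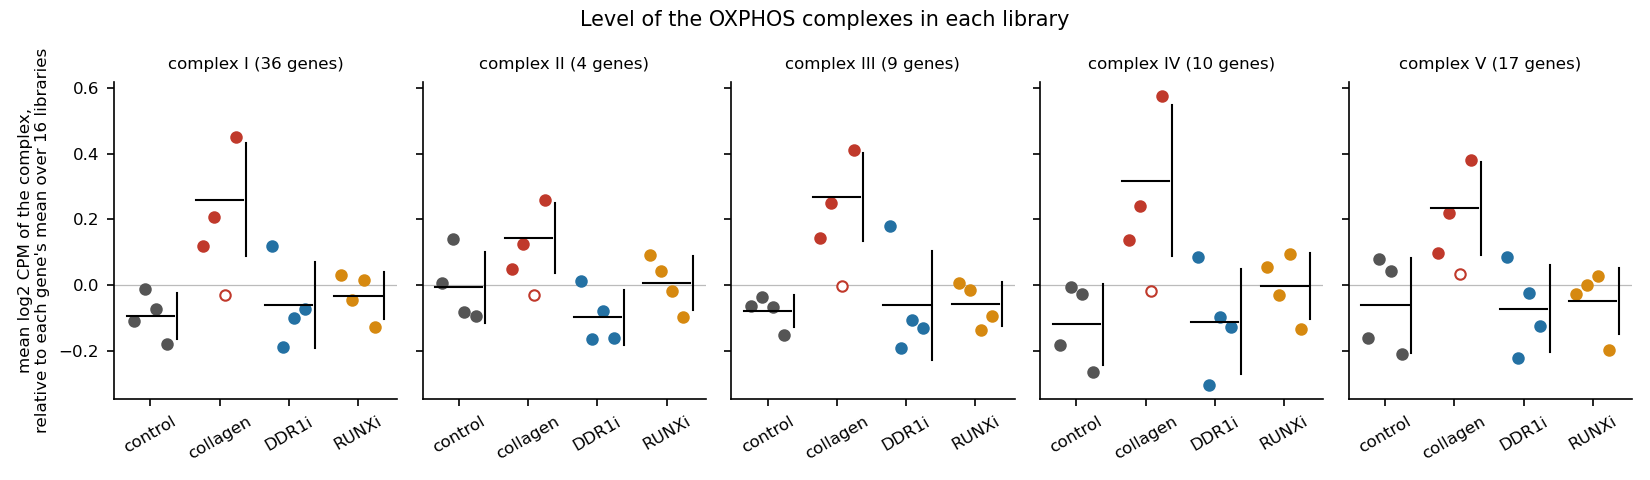
Mean log2 CPM of the members of each complex in every library (y axis), relative to each member's mean over the 16 libraries, for the 4 groups (x axis). Points are libraries in replicate order, the open point is collagen replicate 3, and lines are the mean and SD without it. Collagen replicate 4 is the highest point in every panel, and collagen replicate 3 lies among the inhibitor libraries.

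Collagen in its medium was first compared with the control, to ask how the levels of these genes differed. *COX6C*, a small subunit of complex IV (chromosome 8, 100885428 to 100905935 in GRCh37), was at 209, 235, 208 and 235 CPM in the control libraries and at 329, 361 and 427 in collagen replicates 1, 2 and 4. Replicate 3 had 251 CPM. The groups did not overlap, with or without replicate 3. *COX6C* had the smallest p-value of all members, with a log2 fold change of 0.76 (SE 0.13), and did not pass the threshold (edgeR adjusted p = 0.106). No member was called, among 0% of the 13092 genes tested. At an unadjusted p under 0.05, 41 of the 76 members were higher and 0 lower, against 6.42% of all genes higher, and for 30 members every collagen library lay above every control library (6.45% of all genes). With DESeq2, 18 members were called, all of them higher, against 1.45% of all genes called higher. In total RNA of a culture, more RNA per cell and more cells of a state with high levels cannot be told apart.

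Of the 76 log2 fold changes 74 were positive, with a median of 0.34 against 0.01 over all genes tested. The medians were 0.45 in complex IV, 0.40 in complex III, 0.34 in complex I, 0.32 in complex V and 0.13 in complex II. With collagen replicate 3 included the median was 0.29, 33 members were higher at an unadjusted p under 0.05 (3.40% of all genes) and 0 were called. Leaving out collagen replicate 4 gave the lowest median, 0.22, with 20 members higher at an unadjusted p under 0.05, and leaving out replicate 1 the highest, 0.44. Without control replicate 1 there were 27 such members.

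In complex IV, *NDUFA4* was at 197, 195, 194 and 200.4 CPM in the control and at 229.9, 271, 251 and 368 in collagen replicates 1 to 4, so that all 4 collagen libraries lay above the control. Its log2 fold change was 0.56 (SE 0.15, edgeR adjusted p = 0.135). *COX5A*, a small subunit that binds the matrix side of the complex, had 0.53 (SE 0.14), *COX6B1* 0.56 (SE 0.13) and *COX5B* 0.30 (SE 0.16). *COX4I1*, the ubiquitous form of subunit 4 that the symbol rule leaves out, had 0.35 (SE 0.13). None of these passed the threshold.

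In complex I the accessory subunits, which surround the catalytic core, had a median of 0.40 over 29 members, and the core subunits 0.09 over 7. Against collagen alone, the accessory and core medians lay closer together, at -0.32 and -0.34 with DDR1i and -0.31 and -0.26 with RUNXi. Whether the 29 and the 7 differed was not tested. *NDUFB3*, an accessory subunit of the membrane arm, was at 44.7, 54.2, 52.4 and 54.1 CPM in the control and at 74.4, 69.6 and 92.4 in collagen replicates 1, 2 and 4, with 60.2 in replicate 3. These groups did not overlap either, and the log2 fold change was 0.63 (SE 0.16, edgeR adjusted p = 0.135). *NDUFV1*, which holds the NADH binding site, differed by 0.09 (SE 0.13) and *NDUFS1*, a core subunit with iron-sulfur clusters, by -0.12 (SE 0.14). *NDUFV2* was the 1 core subunit with an unadjusted p under 0.05, at 0.42 (SE 0.13).

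*SDHA* and *SDHB*, which oxidise succinate, differed by 0.09 (SE 0.13) and 0.17 (SE 0.15), and the membrane anchor *SDHD* by 0.29 (SE 0.14). *UQCRC1*, a core protein of complex III, differed by 0.08 (SE 0.13), *UQCRB*, an accessory subunit near the ubiquinone site, by 0.47 (SE 0.13), and *UQCRFS1*, the Rieske iron-sulfur protein, by 0.44 (SE 0.14). In complex V *ATP5A1* (*ATP5F1A*) and the catalytic subunit *ATP5B* (*ATP5F1B*) differed by 0.16 (SE 0.12) and 0.18 (SE 0.11), and *ATP5J*, of the peripheral stalk, by 0.52 (SE 0.14). *ATP5G1*, *ATP5G2* and *ATP5G3*, 3 genes for the same mature c-ring subunit, had 0.39, 0.30 and 0.32. *NDUFC2* had the highest value, 1.18, with an SE of 0.49 at 1.68 to 29.4 CPM.

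**Figure D2:**
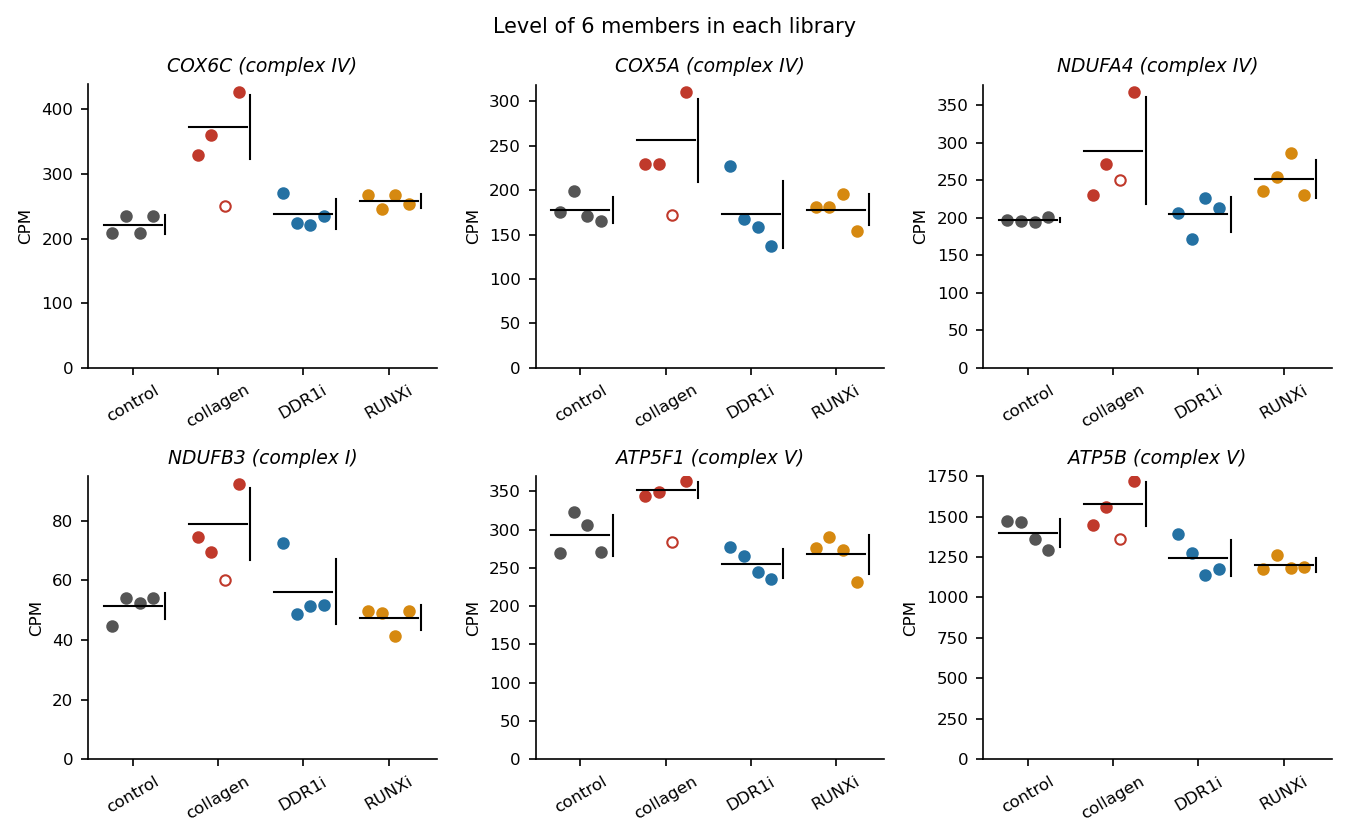
CPM of 6 members (y axis, from 0) in every library of the 4 groups (x axis). Points are libraries, the open point is collagen replicate 3, and lines are the mean and SD without it. For COX6C the collagen libraries without replicate 3 lie between 329 and 427 CPM and the other groups between 208 and 271, while for NDUFB3 DDR1i replicate 1 (72.3 CPM) lies within the collagen range.

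DDR1i was compared with collagen alone, to ask which of these genes differed when DDR1-IN-1 was added. Whether they depend on DDR1 signalling was not tested. In this comparison 6 members were called and all were lower, against 0.775% of 13548 genes called lower. They were *COX6C*, *COX5A*, *NDUFA4* and *COX7B* of complex IV, *NDUFA12* of complex I and *ATP5F1* (*ATP5PB*), the b subunit of the stalk of complex V. No member was higher at an unadjusted p under 0.05 and 48 were lower, against 8.14% of all genes lower. For 32 members every DDR1i library lay under collagen replicates 1, 2 and 4 (6.71% of all genes). The median over members was -0.33, against 0.00 over all genes tested, and 75 of 76 values were negative.

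*COX6C* was at 271, 225, 221 and 235 CPM with DDR1i, each under the 329 of the lowest collagen library in the fit, and collagen replicate 3 (251) lay inside this range. The log2 fold change was -0.65 (SE 0.11, edgeR adjusted p = 0.00459), and it was the 1 member that stayed called in all 11 fits that left out a library. *ATP5F1* was at 343, 349 and 363 CPM in collagen replicates 1, 2 and 4, 284 in replicate 3, and 277, 265, 244 and 236 with DDR1i. Its collagen libraries lay close together apart from replicate 3, and the log2 fold change was -0.46 (SE 0.11, edgeR adjusted p = 0.0254).

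*COX5A* was at 227, 168, 158 and 138 CPM with DDR1i against 229, 229 and 310.1 with collagen, with replicate 3 at 172, and fell by 0.57 on the log2 scale (SE 0.15, edgeR adjusted p = 0.0350). DDR1i replicate 1 lay just under the lowest collagen libraries. *NDUFA12*, an accessory subunit of complex I, was at 65.1, 54.3, 45.3 and 56.3 CPM against 72.3, 73.2 and 105, with replicate 3 at 58.6, and had a log2 fold change of -0.60 (SE 0.15, edgeR adjusted p = 0.0343). *NDUFA4* was at 207, 171, 226 and 213 CPM, under the lowest collagen library (229.9) by less than 4 CPM in DDR1i replicate 3. Its log2 fold change was -0.51 (SE 0.14) and that of *COX7B* -0.43 (SE 0.12), with edgeR adjusted p = 0.0469 for both.

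The medians were -0.43 in complex IV, -0.33 in complexes I, III and V, and -0.26 in complex II. In complex II, *SDHD* had the smallest p-value at -0.40 (SE 0.14), with *SDHB* at -0.27 (SE 0.13) and *SDHA* at -0.07 (SE 0.11). *UQCR11* led complex III at -0.45 (SE 0.13), beside -0.45 (SE 0.14) for *UQCRFS1* and -0.19 (SE 0.11) for *UQCRC1*. In complex V *ATP5A1* and the catalytic subunit *ATP5B* were at -0.29 (SE 0.12) and -0.34 (SE 0.11), and the c-ring genes *ATP5G1*, *ATP5G2* and *ATP5G3* at -0.47, -0.26 and -0.34. *NDUFV1* was at -0.13 (SE 0.11), *COX5B* at -0.32 (SE 0.14) and *NDUFS1* at 0.05 (SE 0.12), the 1 positive value. None of these was called.

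The calls rested on which collagen libraries were used. With collagen replicate 3 included, 0 members were called (0.0225% of all genes lower), 35 were lower at an unadjusted p under 0.05 (4.18% of all genes), and the median was -0.27. *COX6C* then had -0.53 (edgeR adjusted p = 0.267), and the other members called without it -0.49 to -0.38 (edgeR adjusted p from 0.399 to 0.469). Without collagen replicate 4, *COX6C* alone was called (-0.53, edgeR adjusted p = 0.0195; 0.171% of all genes called lower), 27 were lower at an unadjusted p under 0.05, and the median was -0.24. Without collagen replicate 1 there were 14 calls (0.987% of all genes lower), and without DDR1i replicate 1, the highest DDR1i library, 25 (1.83%). Leaving out DDR1i replicate 2, 3 or 4 or RUNXi replicate 2 left 3 calls or fewer, with 0.0820% to 0.519% of all genes called lower. With DESeq2, 26 members were called, all lower (2.49% of all genes).

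**Figure D3:**
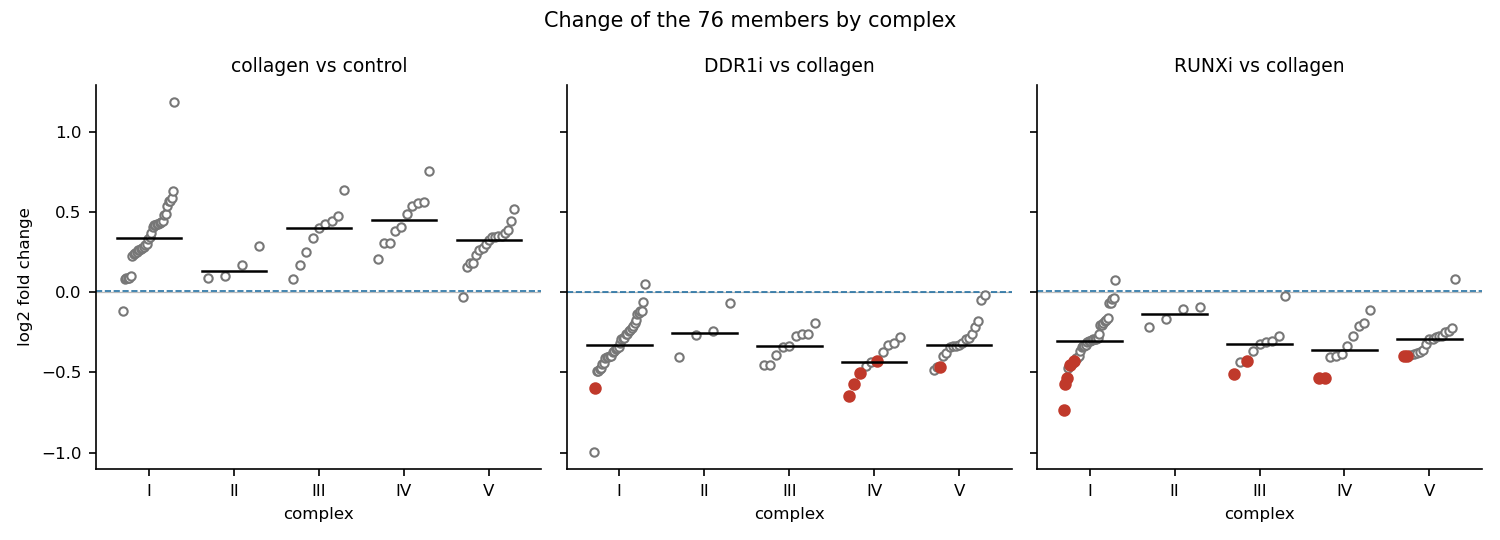
Log2 fold change of every member (y axis) by complex (x axis) in the 3 comparisons with collagen alone or collagen against control. Each circle is a member, filled circles were called, black lines are the median of a complex and the dashed line that of all genes tested. Nearly all members are above 0 in the first panel and below 0 in the others, with 0, 6 and 11 called.

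RUNXi was compared with the same 3 collagen libraries, to ask which genes differed when this inhibitor was added. Whether they depend on RUNX with CBFβ was not tested. Here 11 members were called and all were lower, against 1.46% of all genes called lower. Complex I held 5 of them (*NDUFB3*, *NDUFA1*, *NDUFS5*, *NDUFB2* and *NDUFS3*), and complexes III, IV and V held 2 each (*UQCRB* and *UQCRFS1*, *COX6C* and *COX5A*, *ATP5B* and *ATP5F1*). At an unadjusted p under 0.05, 43 members were lower and 0 higher (10.2% of all genes lower), and 34 did not overlap with collagen replicates 1, 2 and 4 (8.79% of all genes). The median was -0.30, against 0.01 over all genes.

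*NDUFB3* was at 49.7, 49.2, 41.3 and 49.6 CPM with RUNXi, all under the 69.6 of the lowest collagen library in the fit and under collagen replicate 3 (60.2). It had the largest change among the called members, -0.74 (SE 0.15, edgeR adjusted p = 0.0113). *COX6C* was at 267, 246, 268 and 253 CPM, again under 329, with a log2 fold change of -0.53 (SE 0.11, edgeR adjusted p = 0.0136). Collagen replicate 3 (251) lay inside that range.

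*NDUFA1*, an accessory subunit encoded on the X chromosome, was at 116, 118, 125 and 102 CPM with RUNXi against 144, 168 and 186 with collagen (128 in replicate 3), a log2 fold change of -0.53 (SE 0.14, edgeR adjusted p = 0.0303). *NDUFS5*, an accessory subunit facing the intermembrane space, was at 226, 230.4, 238 and 205 CPM against 259, 300.0 and 359 (225 in replicate 3) and fell by 0.45 on the log2 scale (SE 0.12, edgeR adjusted p = 0.0374). For *NDUFA1* all 4 collagen libraries lay above the RUNXi libraries, and for *NDUFS5* all but replicate 3. *UQCRB* was at 232, 243, 274 and 258 CPM against 352, 294 and 366, with 245 in replicate 3, and had -0.43 (SE 0.12, edgeR adjusted p = 0.0382).

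*ATP5B*, the catalytic subunit of the ATP synthase and the called member with the highest CPM, was at 1174, 1263, 1179 and 1191 CPM with RUNXi. Collagen replicates 1, 2 and 4 had 1449, 1558 and 1721 CPM and replicate 3 had 1363, so that all 4 collagen libraries lay above the RUNXi libraries. The log2 fold change was -0.40 (SE 0.11, edgeR adjusted p = 0.0385). *NDUFB2* was called at -0.57 (SE 0.15) although RUNXi replicate 4 (72.8 CPM) lay above collagen replicate 1 (70.2). Its antisense gene had at most 58 counts in a library, and the use of strand is not given in the sources used here. The other called members were *COX5A* at -0.53, *UQCRFS1* at -0.51, *NDUFS3*, a core subunit of complex I, at -0.43, and *ATP5F1* at -0.40, with SEs from 0.11 to 0.15.

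The medians were -0.36 in complex IV, -0.32 in complex III, -0.30 in complex I, -0.29 in complex V and -0.14 in complex II, where *SDHB* was at -0.22 (SE 0.13) and *SDHA* at -0.09 (SE 0.11). *NDUFA4*, called with DDR1i, was at -0.21 (SE 0.14), and *COX5B* at -0.27 (SE 0.14). *NDUFS1* and *NDUFV1* were at -0.06 (SE 0.12) and -0.04 (SE 0.11), *UQCRC1* at -0.02 (SE 0.11) and *ATP5A1* at -0.25 (SE 0.12). The c-ring genes *ATP5G1*, *ATP5G2* and *ATP5G3* were at -0.29, -0.32 and -0.27. None of these was called.

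With collagen replicate 3 included, 0 members were called (0.217% of all genes lower), 29 were lower at an unadjusted p under 0.05 (6.71% of all genes), the median was -0.25, and *NDUFB3* came nearest to the threshold at -0.66 (edgeR adjusted p = 0.0597). The other members called without it then had -0.52 to -0.34, with edgeR adjusted p from 0.189 to 0.303. Without collagen replicate 4 there were 0 calls as well (0.299% of all genes) and 20 members lower at an unadjusted p under 0.05, with *NDUFB3* at -0.60 (edgeR adjusted p = 0.0697) and a median of -0.21. Without collagen replicate 1 there were 16 calls (2.60% of all genes lower). Without collagen replicate 2 there were 6 (1.49%), and without any 1 RUNXi library 3 or fewer (0.453% to 0.698%). With DESeq2, 20 members were called, all lower (3.90% of all genes).

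*COX6C*, *COX5A* and *ATP5F1* were called with both inhibitors, which is 50.0% of the DDR1i list and 27.3% of the RUNXi list. Because the 2 comparisons share their collagen libraries, the values of the called members are set side by side only. *COX6C* was at -0.65 with DDR1i and -0.53 with RUNXi, *COX5A* at -0.57 and -0.53, *ATP5F1* at -0.46 and -0.40, *NDUFB3* at -0.49 and -0.74, *NDUFA1* at -0.47 and -0.53, and *NDUFA4* at -0.51 and -0.21. In a direct comparison of the inhibitors 0 members differed (0.568% of all genes), 4 had an unadjusted p under 0.05 (6.19% of all genes), and DESeq2 called 0 as well (0.989% of all genes). The median of DDR1i against RUNXi was -0.03. The smallest p-value of each complex was that of *NDUFC2* (-0.70, SE 0.26), *SDHD* (-0.24, SE 0.13), *UQCRC1* (-0.17, SE 0.10), *NDUFA4* (-0.30, SE 0.13) and *ATP5G1* (-0.18, SE 0.12). For *NDUFA4* every DDR1i library (171 to 226 CPM) lay under every RUNXi library (229.6 to 286), with an unadjusted p of 0.0294 and an edgeR adjusted p of 0.699. It was the 1 member of 76 whose groups did not overlap, while 302 of the 13548 genes tested were lower in this way.

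Each inhibitor was then set against the control, with 12 libraries fitted and the collagen group unused. With DDR1i against control 0 members were called (0.212% of all genes), 1 had an unadjusted p under 0.05 (5.13%), DESeq2 called 0 (0.492%), and the median was 0.02. With RUNXi 0 were called (0.401%), 4 had an unadjusted p under 0.05 (6.81%), DESeq2 called 0 (0.817%), and the median was 0.04. With the trend of level with transcript length removed, which moved the median of all genes to -0.11 and -0.07, these medians turned to -0.20 and -0.10, with 0 calls. *NDUFS7*, a core subunit of complex I, had the smallest p-value with DDR1i, at -0.31 (SE 0.14). The smallest of the other complexes were those of *SDHC* (-0.14), *UQCRB* (0.14), *COX6B1* (0.12) and *ATP5B* (-0.16).

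With RUNXi against control, *NDUFA4* was higher in all 4 libraries (229.6 to 286 CPM against 194 to 200.4), at 0.35 (SE 0.10, edgeR adjusted p = 0.219). *COX6C* also lay above the control in all 4, at 0.22 (SE 0.10, edgeR adjusted p = 0.639), and *ATP5B* lay under it in all 4, at -0.22 (SE 0.08, edgeR adjusted p = 0.576). In all, 3 of 76 members lay above and 1 under the control without overlap, against 304 and 260 of the 13213 genes tested. *NDUFC2* (0.90, SE 0.42), *SDHD* (0.12, SE 0.13) and *UQCRC2* (-0.15, SE 0.12) had the smallest p-values of complexes I, II and III. Among *NDUFS1*, *NDUFV1*, *SDHA*, *SDHB*, *UQCRC1*, *UQCRFS1*, *COX5A*, *COX5B*, *NDUFA4*, *ATP5A1*, *ATP5B* and the c-ring genes, values against the control ran from -0.16 (*ATP5B*) to 0.06 (*NDUFA4*) with DDR1i and from -0.22 (*ATP5B*) to 0.35 (*NDUFA4*) with RUNXi.

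Subunits and partners that the symbol rule leaves out were counted from a separate list of 10 genes. With collagen against control 6 of the 9 tested had an unadjusted p under 0.05, all higher (6.42% of all genes), with a median of 0.45. With DDR1i 2 of 9 were called, both lower (0.775% of all genes), with a median of -0.40. They were *USMG5* (-0.62, SE 0.13, edgeR adjusted p = 0.0115), a small subunit of complex V, and *CYCS* (-0.50, SE 0.14, edgeR adjusted p = 0.0471), which encodes cytochrome c. With RUNXi 2 were called lower (1.46% of all genes) and the median was -0.36. These were *C14orf2* (-0.51, SE 0.14, edgeR adjusted p = 0.0447), also of complex V, and *CYCS* (-0.48, SE 0.14, edgeR adjusted p = 0.0456). *CYC1*, cytochrome c1 of complex III, was at -0.38 with each inhibitor, *NDUFAB1* at -0.48 and -0.46, *COX7A2L*, which joins complexes III and IV, at -0.40 and -0.36, and *COX4I1* at -0.26 and -0.33, none of them called. With collagen replicate 3 included, 8 of these genes were tested, 5 were higher with collagen at an unadjusted p under 0.05, 0 were called, and the medians were 0.34, -0.32 and -0.30. *USMG5* and *CYCS* then had -0.50 and -0.40 with DDR1i (edgeR adjusted p = 0.418 and 0.479), and *C14orf2* and *CYCS* -0.43 and -0.38 with RUNXi (edgeR adjusted p = 0.253 and 0.301).

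Of 39 assembly factors, which build the complexes, 0 were called with collagen (0% of all genes), 2 were lower with DDR1i (0.775% of all genes) and 1 with RUNXi (1.46%), with medians of 0.27, -0.21 and -0.24. *NDUFAF4*, an assembly factor of complex I, was lower with both (-0.66 and -0.65, SE 0.17 each, edgeR adjusted p = 0.0323 and 0.0307), and *TMEM70*, of complexes I and V, with DDR1i (-0.59, SE 0.15, edgeR adjusted p = 0.0391). Of 13 genes of the TCA cycle, *SUCLG1* was called with RUNXi (-0.46, SE 0.13, edgeR adjusted p = 0.0472), against 1.46% of all genes called lower. The medians were 0.14, -0.17 and -0.16. Including collagen replicate 3, 0 genes of both lists were called, and the medians were 0.20, -0.17 and -0.23 for the assembly factors and 0.08, -0.13 and -0.15 for the TCA cycle. *NDUFAF4* then had -0.48 and -0.47 (edgeR adjusted p = 0.536 and 0.359), *TMEM70* -0.42 with DDR1i (edgeR adjusted p = 0.537) and *SUCLG1* -0.38 with RUNXi (edgeR adjusted p = 0.274). Of the 11 regulators tested, among them *NRF1*, *GABPA*, *YY1*, *TFAM* and *PPARGC1B*, 0 were called in these 3 comparisons, with or without collagen replicate 3, and the medians were -0.08, -0.09 and -0.13 without it and -0.06, -0.05 and -0.12 with it. *NRF1* was at -0.24 (SE 0.23) with collagen, -0.13 (SE 0.22) with DDR1i and -0.28 (SE 0.22) with RUNXi. *PPARGC1B*, a coactivator of mitochondrial genes, was at -0.39 (SE 0.28), 0.42 (SE 0.21) and 0.52 (SE 0.21).

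Other large groups of housekeeping genes moved in the same libraries. The median of 76 mitochondrial ribosomal protein genes was 0.33 with collagen, -0.34 with DDR1i and -0.37 with RUNXi, beside 0.34, -0.33 and -0.30 for the OXPHOS members. For 81 cytosolic ribosomal protein genes it was 0.35, -0.26 and -0.29, and for 36 proteasome subunit genes 0.27, -0.24 and -0.33. Of these 3 groups, in this order, 4, 3 and 2 genes were called lower with DDR1i (0.775% of all genes). With RUNXi 10, 7 and 4 were (1.46%). At an unadjusted p under 0.05, 29, 63 and 15 were higher with collagen (6.42% of all genes). Lower at that level were 43, 45 and 16 with DDR1i (8.14%) and 53, 55 and 25 with RUNXi (10.2%). With collagen replicate 3 included 0 were called. The average of all 3 groups was highest in collagen replicate 4 (0.48, 0.42 and 0.41), as that of the members was. The medians with collagen replicate 3 included were 0.25, -0.26 and -0.29 for the mitochondrial ribosomal genes, 0.29, -0.19 and -0.24 for the cytosolic ones and 0.20, -0.17 and -0.27 for the proteasome, beside 0.29, -0.27 and -0.25 for the members. Whether the members differed from these groups was not tested.

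Transcript length moved with the same libraries. The canonical transcripts of the members had a median of 830.5 bases, against 3257 over 13518 genes kept, and 43 of 76 were under 1000 bases. Levels of the genes that are not members were also set relative to each gene's mean over the libraries, and medians were taken. The median for transcripts of at least 5157.75 bases minus that for at most 1967.25 was -0.73 in collagen replicate 4. It was -0.18 and -0.24 in replicates 1 and 2, and 0.16 in replicate 3. It was 0.01 to 0.28 in the control, -0.23 in DDR1i replicate 1 and 0.06 to 0.23 in the other DDR1i libraries, and 0.03 to 0.12 with RUNXi. The libraries with high levels of the members were thus those with low levels of long transcripts. Among all 861 genes tested with a transcript under 1000 bases the median with collagen was 0.32 and 225 were higher at an unadjusted p under 0.05. Among the 920 such genes tested with the inhibitors the medians were -0.24 with DDR1i and -0.27 with RUNXi. Of these 920, 23 and 39 were called lower, and 217 and 273 were lower at an unadjusted p under 0.05. The 43 members of that length had medians of 0.37, -0.34 and -0.32, with 2 called lower with DDR1i and 6 with RUNXi. The 17 members with a transcript of 2000 bases or longer had medians of 0.32 with collagen, -0.34 with DDR1i and -0.27 with RUNXi, where all genes of that length had -0.07, 0.07 and 0.07. With collagen replicate 3 included the median of all genes under 1000 bases was 0.25 with collagen, -0.18 with DDR1i and -0.22 with RUNXi. The members of 2000 bases or longer then had 0.26, -0.28 and -0.20, against -0.05, 0.04 and 0.04 for all genes of that length.

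**Figure D4:**
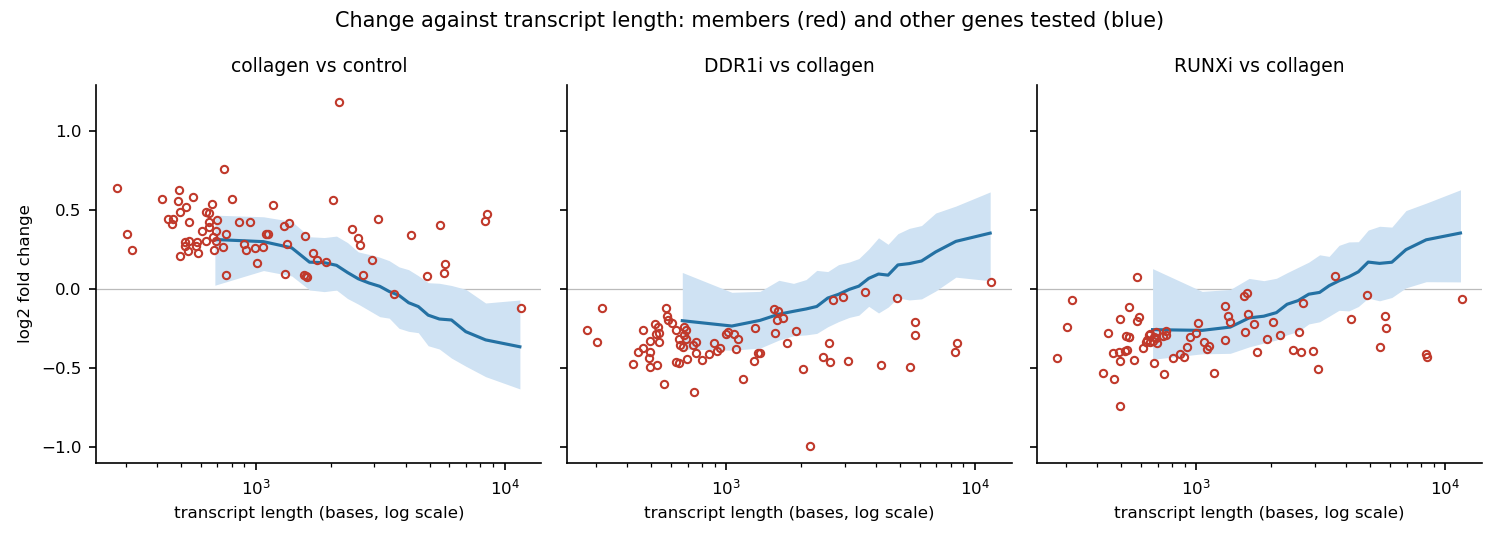
Log2 fold change (y axis) against the length of the canonical transcript (x axis, log scale) for the 76 members (red circles) and the other genes tested (blue line, median in 20 bins of length; band, middle 50%). Short transcripts are higher with collagen (median 0.31 in the shortest bin) and lower with the inhibitors. Several members with long transcripts lie off the line, while others, such as SDHA and ATP5E, lie near it. The canonical transcript of some long members has a long part outside the coding sequence.

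A spline on log2 transcript length was then fitted in every library and its trend taken out. The median of the members was then 0.06 with collagen (all genes, -0.06), -0.27 with DDR1i (-0.05) and -0.17 with RUNXi (-0.01). With collagen 6 members were higher at an unadjusted p under 0.05 (2.12% of all genes). With DDR1i 7 were called lower (0.982% of all genes), *COX6C* (-0.55), *ATP5F1* (-0.45) and *NDUFA12* (-0.53) as before and *NDUFA9*, *UQCRB*, *ATP5A1* and *NDUFB5* in addition, and 39 were lower at an unadjusted p under 0.05 (10.0%). With RUNXi 3 were called lower (0.944%), *NDUFB3* (-0.62) as before, *UQCRB* (-0.71), also as before, and *NDUFA9* (-0.69), and 23 were lower at an unadjusted p under 0.05 (8.63%). The members called in addition with DDR1i have long canonical transcripts, of 8356 bases (*NDUFA9*), 8459 (*UQCRB*), 5761 (*ATP5A1*) and 4199 (*NDUFB5*). These added calls thus depend on the length assigned to each gene. With RUNXi, *UQCRB* went from -0.43 to -0.71 when the trend was removed. With the trend on coding length removed instead, an alternative chosen after seeing the data, the medians were 0.02, -0.16 and -0.11. In these fits 0, 0 and 1 member (*ATP5B*, -0.42) were called. Over all genes 0 were called higher with collagen, and 12 and 50 of 12319 lower with DDR1i and RUNXi. With transcript length removed and collagen replicate 3 included the medians were 0.02, -0.20 and -0.10, with 0 calls. In the plot of medians under other settings the sign of each comparison is the same throughout, and the size depends on the collagen libraries and on length.

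**Figure D5:**
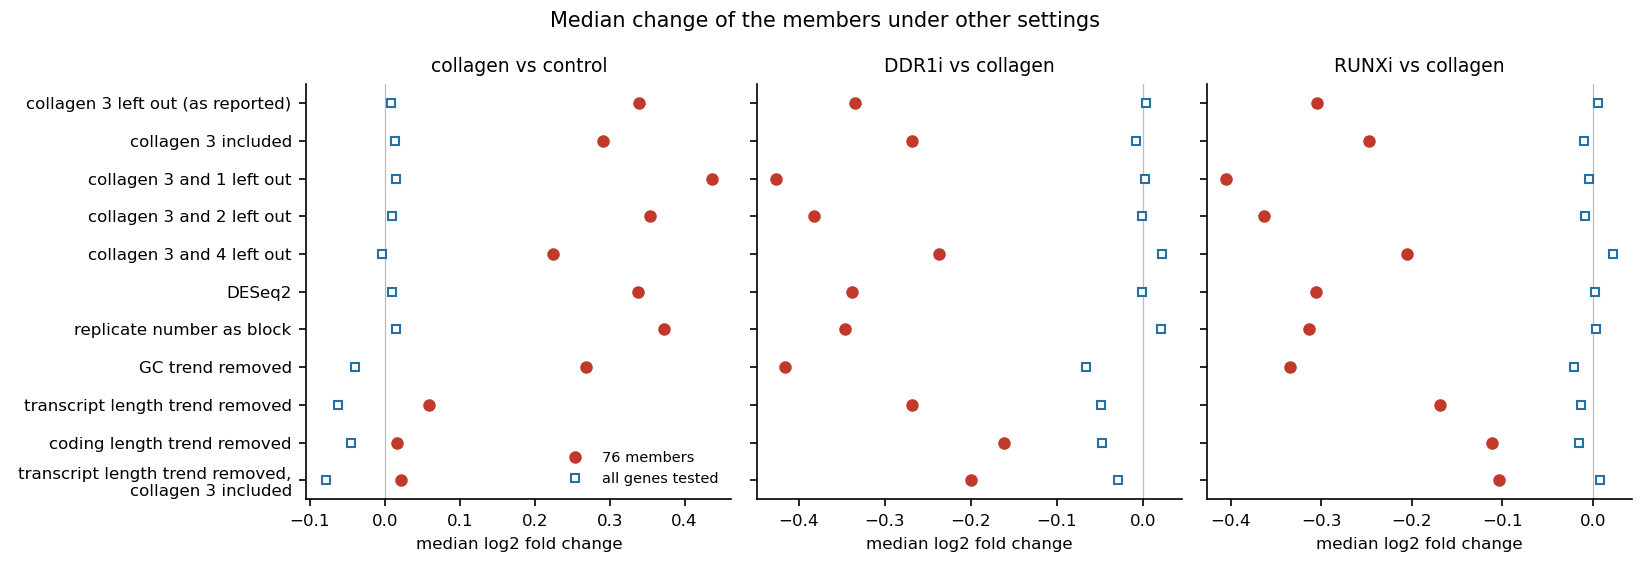
Median log2 fold change (x axis) of the 76 members (circles) and of all genes tested (squares) under 11 settings (y axis) for the 3 comparisons. With collagen against control the members' median goes from 0.34 to 0.02 when a length trend is removed, and with the inhibitors it stays below that of all genes at each setting.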

How the data were processed

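RNA-seq was measured in 16 MCF10A libraries, grouped from the deposited labels. Libraries were made with TruSeq kits and sequenced as paired-end reads. The authors aligned reads to GRCh37 with STAR and deposited raw counts per gene and library; the counting tool, annotation and use of strand are not given in the sources used here. No row was a total, and columns of all 16 libraries were used. Gene positions and lengths came from GENCODE lifted to GRCh37, to which all 76 members and 22127 of 26475 names were matched.

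Tests were run with edgeR 4.0.16 under R 4.3.3 (TMM, filterByExpr, robust quasi-likelihood fit, Benjamini-Hochberg adjustment, threshold 0.05). Collagen against control used 7 libraries (13092 genes, biological coefficient of variation 0.353), the inhibitors against collagen 11 (13548 genes, 0.287) and against control 12 (13213 genes, 0.310). DESeq2 1.42.0, other normalizations and filters, splines with 4 degrees of freedom on length or GC content, a replicate block and leaving out each library were alternatives. The tests were tried on simulated data. Replicates differed by more than sampling noise (lowest chi-square per degree of freedom 18.3). Figures were drawn with matplotlib 3.10.9.

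Named were the called members (up to 5 by smallest adjusted p-value, the others after their values were seen), the member of each complex with the smallest p-value, a fixed set by role, subunits outside the symbol rule, extremes of level per coding length and members at the count limit. The members, lists and tests were chosen with earlier results of these data known. Promoter motifs were searched by cores shorter than first planned.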

Additional observations from a re-analysis of the deposited data

Results flagged for a closer look

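Values of the libraries within a group of 4 were compared for totals, average levels and called members, 88 groups of values in all, of which chance alone would be expected to set apart about 4.4. In 3 of them 1 library stood apart from the other 3 by Dixon's ratio at its 95% level. The total count of collagen replicate 1 was 17570707 against 26642600 to 27695778 in the other collagen libraries (ratio 0.896). *NDUFB3* was at 72.3 CPM in DDR1i replicate 1 against 48.8 to 51.9 in the other DDR1i libraries (ratio 0.872). *NDUFB3* was also at 41.3 CPM in RUNXi replicate 3 against 49.2 to 49.7 in the other RUNXi libraries (ratio 0.931).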

How the results depend on the processing

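The direction of the members' median was the same in the 3 comparisons with the collagen group under every alternative run, and 0 members were called in the other 3 comparisons. The number called depended on the setting. Collagen against control went from 0 to 18 with DESeq2 (1.45% of all genes called higher). The number was 8 without a filter on low counts (106 of 18059 genes higher) and 12 with all 4 groups in the fit (112 of 13731). It stayed at 0 in 7 fits without a single library. DDR1i against collagen went from 6 to 26 with DESeq2 (2.49% of all genes called lower). The number was 18 without a filter (274 of 17911 genes lower) and 24 with the GC trend removed (339 of 13036). It was 0 with the coding length trend removed (12 of 12319). With collagen replicate 3 included it was 0 whether or not the transcript length trend was removed (3 of 12889 and 3 of 13361). RUNXi against collagen went from 11 to 20 with DESeq2 (3.90% of all genes called lower) and 18 without a filter (485 of 17911 genes lower). The number was 3 with the transcript length trend removed (123 of 13036) and 1 with the coding length trend removed (50 of 12319). With collagen replicate 3 included it was 0 whether or not the transcript length trend was removed (28 of 12889 and 29 of 13361). Leaving out single libraries gave 1 to 25 calls for DDR1i and 0 to 16 for RUNXi. The cause of these differences was not tested.

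With the replicate number as a block, 12 members were called for DDR1i and 14 for RUNXi, while calls over all genes, both directions together, went from 334 to 537 and from 549 to 759. Of 21 pairs of equally numbered libraries 7 had a correlation over 0.1 (median 0.073, against -0.033 for differently numbered libraries). Every pair among the replicate 4 libraries was over 0.1, at 0.161 to 0.276, so that these libraries shared part of their spread across groups. The main fits do not take the numbers as pairs, and what the replicate 4 libraries share was not tested. Of 985 refits of single named members, called or not, 811 kept their side of the threshold and direction, 158 lost and 16 gained the threshold. In the 11 fits without a single library, *COX7B* stayed called in 1 and *NDUFA4* in 3 with DDR1i. With RUNXi, *NDUFS3* stayed called in 2, and *COX6C* and *NDUFB3* in 10. *COX6C* with DDR1i stayed called in all 11, and the other called members in 5 to 7. The number of libraries limits precision. With collagen, *COX6C*, at 0.76 (SE 0.13), had an edgeR unadjusted p of 1.79e-05. After adjustment over all genes tested it did not pass the threshold (edgeR adjusted p = 0.106).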
